A study of Mus musculus with 2 samples.

Results

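The genes described here are 32 transporters and enzymes listed by symbol under branched-chain amino acid uptake and breakdown. They were taken from 37315 genes counted in white fat of obese mice. Slc43a3, Oxct1 and Abat lie outside this pathway or at its edge. All 32 were matched by Ensembl identifier and all passed the limit on low values, a mean of at least 1 CPM (counts per 1000000 reads of the scaled library size). The study sequenced 1 library of entacapone-treated and 1 library of vehicle-treated inguinal white adipose tissue, the fat pad under the skin of the groin. Both came from C57BL/6 male mice, 23 weeks old, made obese with a high-fat diet. Entacapone inhibits catechol-O-methyltransferase and is prescribed in Parkinson disease; it has also been described to inhibit FTO, an RNA demethylase. The sources used here do not state the dose, the treatment time or how many mice each library represents. All comparisons are between whole-tissue libraries of obese animals, with no lean group.

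Leucine, isoleucine and valine cannot be made by animals and enter cells mainly through sodium-independent carriers of the plasma membrane. Inside the cell a transaminase removes the nitrogen. The branched-chain 2-oxo acid dehydrogenase (BCKDH) complex of the mitochondrion then commits the carbon skeletons to oxidation, and it is switched off by a kinase and on by a phosphatase. Separate branches carry the products of each amino acid to acetyl-CoA, acetoacetate or, through propionyl-CoA, to succinyl-CoA. White fat is known as a site where these amino acids are broken down and their carbon is used for lipid synthesis, and these genes are known to be expressed at lower levels in fat of obese rodents.

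The entacapone library held 12979673 counted reads and the vehicle library 13620056. The adipocyte hormone gene Adipoq stood at 3118 CPM with entacapone and 2867 CPM with vehicle. Each group is a single library, which gives neither a replicate error nor a test, so each ratio describes these 2 libraries and not the treatments. Every ratio is entacapone over vehicle and carries an exact 95% interval (Clopper-Pearson, on the share of a gene's reads that came from the entacapone library), which covers counting error only. "Beyond counting error" means that this interval excludes a ratio of 1. In whole tissue, a change in the number of cells of a type and a change in RNA per cell cannot be told apart.

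Most of the 32 genes were slightly higher in the entacapone library. Beyond counting error, 25 were higher, 1 was lower and 6 could not be separated from a ratio of 1. Of all 13361 genes that passed the limit on low values, 20.2% were higher and 21.1% lower by the same criterion. The median ratio of the 32 genes was 1.21-fold (log2 0.27), beside a median log2 ratio of 0.00 over all measured genes. Because counting error shrinks with abundance, the comparison was repeated for genes of at least 20 CPM. There, 24 of 30 pathway genes were higher and 1 was lower, beside 28.7% higher and 23.3% lower of 7020 genes.

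**Figure D1:**
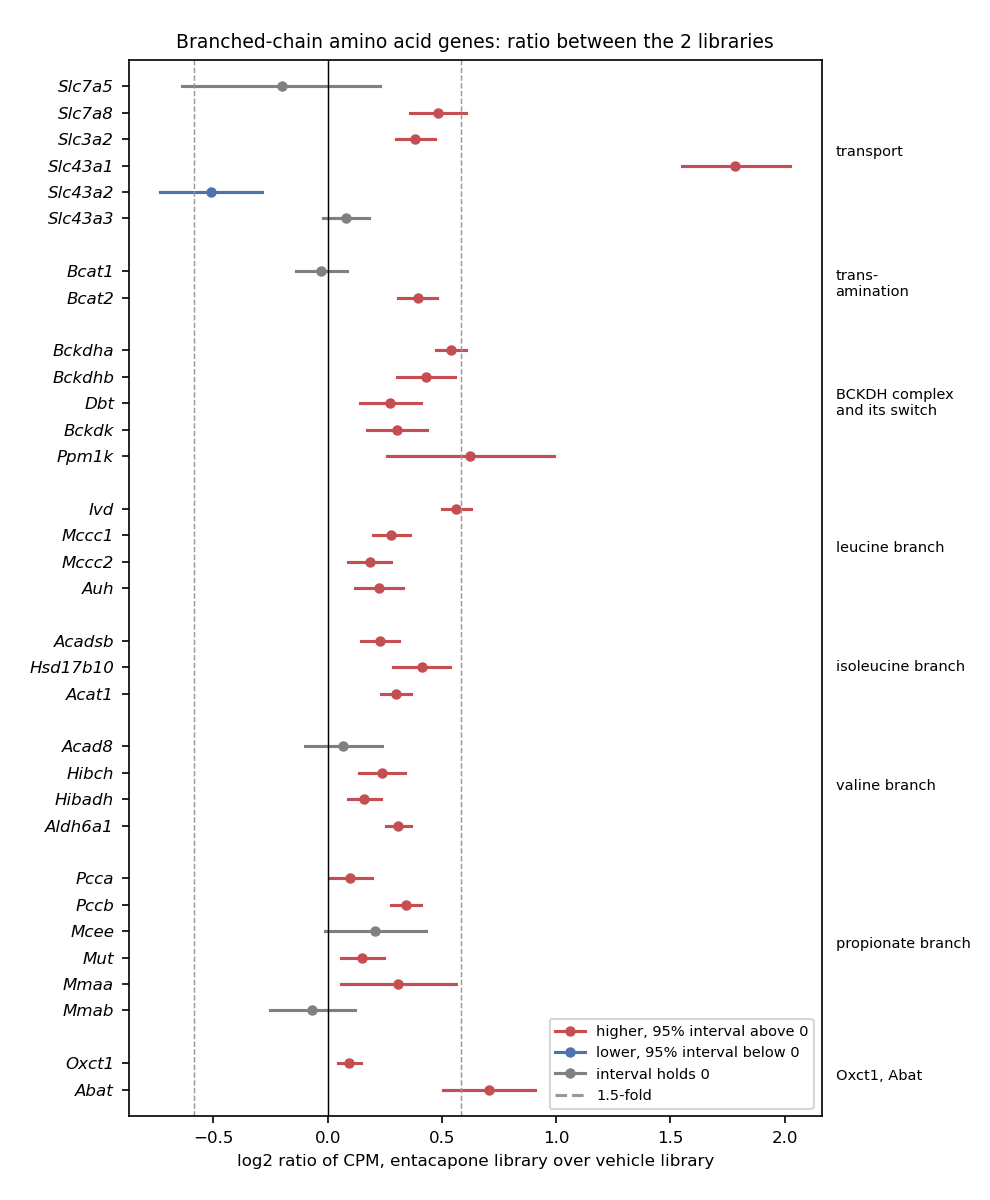
Log2 ratio of CPM (entacapone over vehicle, 1 library each) for the 32 genes, grouped by role, with exact 95% counting intervals as horizontal lines and the 1.5-fold limits dashed. Slc43a1 stands far to the right at 1.78, Slc43a2 is the 1 gene lower beyond counting error at -0.51, and all 5 genes of the BCKDH group lie above 0.

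The differences were small for most genes. Slc43a1, Abat and Ppm1k, 3 genes, were higher by 1.5-fold or more and beyond counting error, and 0 were lower by that much. Among all measured genes, 4.16% were higher and 7.9% lower by this limit. At least 2-fold higher was Slc43a1 alone, beside 1.66% of all measured genes higher and 3.5% lower. The lower and upper quartiles of the 32 log2 ratios were 0.14 and 0.40, and those of all measured genes were -0.22 and 0.18.

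**Figure D2:**
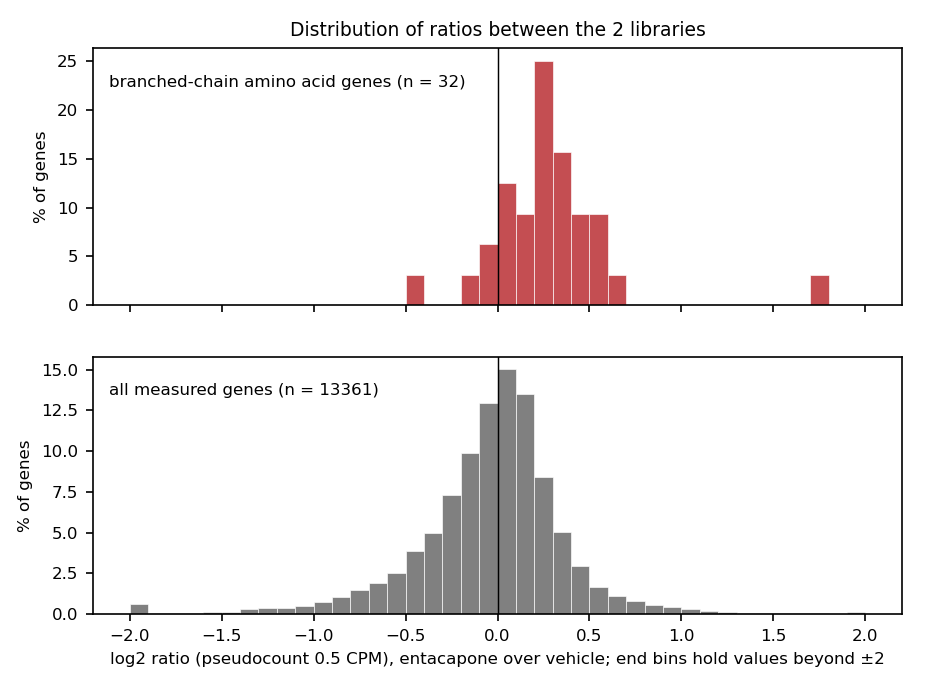
Share of genes (%, vertical) by log2 ratio of entacapone over vehicle (horizontal, 0.5 CPM added to both) for the 32 pathway genes above and all 13361 measured genes below. The pathway genes centre at 0.27 and all measured genes at 0.00, with Slc43a1 apart on the right.

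The carriers of the plasma membrane went in different directions. Slc43a1 encodes LAT3, a facilitative carrier of large neutral amino acids (chromosome 2, 84838850 to 84863594, GRCm38). It had 619 reads in the entacapone and 194 reads in the vehicle library, or 48.4 against 14.0 CPM. The ratio was 3.44-fold (log2 1.78, 1.55 to 2.02), and 44 of the 13361 measured genes had a higher one. Slc43a2, which encodes the related carrier LAT4, had 276 entacapone and 424 vehicle reads and was 1.42-fold lower (log2 -0.51, -0.73 to -0.29). Slc43a3 belongs to the same family but is known to carry purine nucleobases, not amino acids. It stood at 122 CPM with entacapone and 115 CPM with vehicle, within counting error (log2 0.08, -0.02 to 0.18). The 3 members of this small family were thus higher, lower and within counting error.

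The exchangers that pair with a common heavy chain were led by LAT2. Slc7a8, which encodes LAT2, stood at 97.9 CPM with entacapone and 70.1 CPM with vehicle (log2 0.48, 0.36 to 0.60). Slc3a2, the heavy chain (4F2hc) that brings these exchangers to the cell surface, stood at 192 against 147 CPM (log2 0.38, 0.30 to 0.47). Slc7a5, which encodes LAT1, the exchanger of growing and activated cells, was scarce, with 83 entacapone and 103 vehicle reads and a log2 ratio of -0.20 (-0.64 to 0.23). At this depth a difference of that size in Slc7a5 was not detectable. Together the 6 transporter genes summed to 488 CPM with entacapone and 384 CPM with vehicle. This sum includes Slc43a3, at 122 CPM with entacapone and 115 CPM with vehicle.

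Shares of reads within a set of genes do not depend on how the libraries are scaled. Slc43a1 took 25.2% (23.5 to 27.0) of the reads of the 3 Slc43 genes in the entacapone library and 8.79% (7.64 to 10.05) in the vehicle library, with exact Clopper-Pearson intervals. Slc43a2 took 11.3% of the entacapone and 19.2% of the vehicle reads of this set, so the order of these 2 carriers by reads was opposite in the libraries. For the transaminases, Bcat2 took 66.2% (64.6 to 67.7) of the reads of the pair in the entacapone library and 59.4% (57.7 to 61.0) in the vehicle library. These intervals did not overlap. The phosphatase Ppm1k took 13.03% (11.2 to 15.1) of the reads of the kinase and phosphatase pair in the entacapone library and 10.7% (8.87 to 12.8) in the vehicle library, and here the intervals overlapped.

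**Figure D3:**
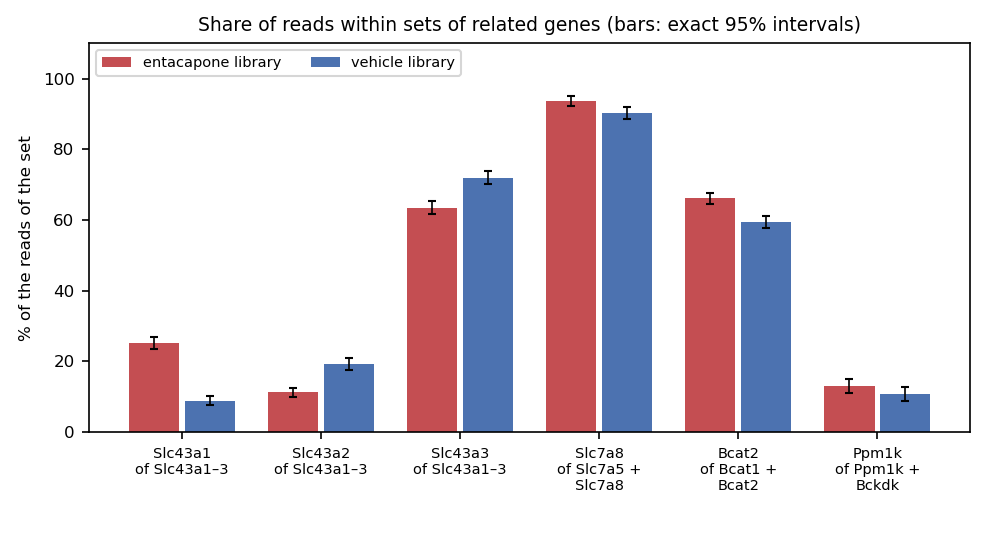
Share of reads (%) that a gene took within a set of related genes, in the entacapone library (left bar of each pair) and the vehicle library (right bar), with exact 95% intervals as error bars. Slc43a1 reached 25.2% against 8.79% and Bcat2 66.2% against 59.4%, without overlap, whereas the Ppm1k intervals overlapped.

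The first step of breakdown differed between its mitochondrial and cytosolic enzyme. Bcat2, the mitochondrial transaminase that most tissues use, had 2505 entacapone and 2058 vehicle reads (196 against 149 CPM, log2 0.39, 0.31 to 0.48). Bcat1, the cytosolic form, had 1281 entacapone and 1409 vehicle reads and was within counting error (log2 -0.03, -0.14 to 0.08).

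All 5 genes of the BCKDH complex and its switch were higher in the entacapone library beyond counting error. Bckdha, the E1 alpha subunit that the kinase phosphorylates (chromosome 7, 25629946 to 25658981), stood at 335 CPM with entacapone and 231 CPM with vehicle (log2 0.54, 0.47 to 0.61). Bckdhb, the E1 beta subunit, stood at 88.8 against 65.9 CPM (0.43, 0.30 to 0.56). Dbt, the E2 core that transfers the acyl group, stood at 74.1 against 61.2 CPM (0.27, 0.14 to 0.41). The subunit genes shared a direction; the interval of Bckdha lay above that of Dbt, and that of Bckdhb overlapped both. Bckdk, the kinase that switches the complex off, had 1028 entacapone and 900 vehicle reads (log2 0.30, 0.17 to 0.43). Ppm1k, the phosphatase that switches it on (chromosome 6, 57506502 to 57535468), had only 154 entacapone and 108 vehicle reads (log2 0.62, 0.26 to 0.99). Both sides of the switch were therefore higher, and their ratios could not be separated at this depth. Summed over the 5 genes, the entacapone library held 590 CPM and the vehicle library 431 CPM, a ratio of 1.37 (1.32 to 1.42).

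Promoter windows are shown for Slc43a1, which had the largest ratio, and for Ppm1k and Bckdk, the opposing pair of the switch. They come from RefSeq on GRCm38.p6, 5' to 3' on the strand of the gene. Each begins 250 bases before the RefSeq start, and those of Ppm1k and Bckdk run up to it. The RefSeq start of Slc43a1 lies inside the gene as GENCODE M21 draws it: the stretch shown begins 1223 bases downstream of the GENCODE gene start, within an intron of longer transcripts, and stops before the first GENCODE exon in the window. Capitals mark the CACCC box CCACCC, bound by Kruppel-like factors, and the GC box CCGCCC, bound by SP1, on either strand. The E-box CACGTG and the ATF4-C/EBP element TGATGNAA were also searched and do not occur in these 3 stretches, and none of the marked matches overlap. The full 250 bases before the RefSeq start of Slc43a1 do hold an E-box, which the shortened stretch does not include.
Slc43a1, chr2:84840073-84840198, plus strand: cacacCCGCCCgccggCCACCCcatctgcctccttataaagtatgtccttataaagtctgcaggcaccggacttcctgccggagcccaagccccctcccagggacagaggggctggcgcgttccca
Ppm1k, chr6:57535488-57535737, minus strand: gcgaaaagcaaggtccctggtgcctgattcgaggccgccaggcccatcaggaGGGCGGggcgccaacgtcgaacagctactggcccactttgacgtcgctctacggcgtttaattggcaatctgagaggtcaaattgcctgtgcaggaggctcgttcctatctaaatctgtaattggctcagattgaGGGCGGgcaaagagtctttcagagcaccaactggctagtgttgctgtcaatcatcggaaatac
Bckdk, chr7:127903823-127904072, plus strand: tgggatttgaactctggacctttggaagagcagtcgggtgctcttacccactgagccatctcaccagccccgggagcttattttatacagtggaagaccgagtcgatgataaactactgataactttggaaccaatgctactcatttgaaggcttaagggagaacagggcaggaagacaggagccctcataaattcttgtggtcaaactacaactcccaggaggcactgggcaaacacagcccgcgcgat
The Slc43a1 stretch holds 1 CACCC box and 1 GC box, the Ppm1k stretch 2 GC boxes, and the Bckdk stretch neither. Of the 32 genes, 26 had a window (33 windows in all); Abat, Acat1, Dbt, Mut, Slc43a3 and Slc7a5 had none. In the 250 bases before the start, the CACCC box occurred in 33.3% of these windows and in 28.1% of all 32851 windows in the table. The GC box occurred in 57.6% and 32.7%, the E-box in 6.06% and 6.02%, and the ATF4-C/EBP element in 0 of the 33 windows and 3.45% of all. The full table also holds windows of noncoding and predicted genes, and a match is a description of the letters only.

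In the leucine branch all 4 genes were higher in the entacapone library. Ivd, isovaleryl-CoA dehydrogenase, was first among them at 384 CPM with entacapone and 260 CPM with vehicle (log2 0.56, 0.50 to 0.62). Mccc1 and Mccc2, the biotin-bearing and the carboxyl-transferring subunit of methylcrotonyl-CoA carboxylase, lay at log2 ratios of 0.28 (0.20 to 0.36) and 0.18 (0.09 to 0.28). Auh, the hydratase of the next step, lay at 0.22 (0.12 to 0.33). The branch summed to 858 CPM with entacapone and 663 CPM with vehicle.

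In the isoleucine branch 3 of 3 genes and in the valine branch 3 of 4 were higher in the entacapone library. For isoleucine, Acadsb, the short/branched-chain acyl-CoA dehydrogenase, lay at a log2 ratio of 0.23 (0.15 to 0.31). Hsd17b10, the dehydrogenase of the hydroxyacyl step, lay at 0.41 (0.29 to 0.54), and Acat1, the thiolase that ends the branch, at 0.30 (0.23 to 0.36). All 3 intervals excluded a ratio of 1. For valine, Acad8, isobutyryl-CoA dehydrogenase, had 574 entacapone and 591 vehicle reads and was within counting error (0.07, -0.10 to 0.24). The later valine enzymes were higher, with Hibch, the CoA-releasing hydrolase, at 0.24 (0.14 to 0.34), Hibadh, the following dehydrogenase, at 0.16 (0.09 to 0.23) and Aldh6a1, which makes propionyl-CoA, at 0.31 (0.25 to 0.36). Aldh6a1 was also among the most abundant genes of the pathway by reads, at 460 CPM with entacapone and 371 CPM with vehicle.

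In the propionate branch, which turns propionyl-CoA into succinyl-CoA, 4 of 6 genes were higher beyond counting error. The beta subunit gene Pccb of propionyl-CoA carboxylase stood at 329 CPM with entacapone and 259 CPM with vehicle (log2 0.34, 0.28 to 0.41). The gene of its partner subunit, Pcca, stood at 139 against 130 CPM, and its interval barely cleared 0 (0.10, 0.00 to 0.19). The 2 subunit genes of this carboxylase thus differed in ratio, with intervals that did not overlap. Mut, the cobalamin-dependent mutase, lay at 0.15 (0.06 to 0.25), and Mmaa, a chaperone of that mutase, at 0.31 (0.06 to 0.56). The epimerase Mcee (0.21, -0.01 to 0.43) and the cofactor enzyme Mmab (-0.07, -0.25 to 0.12) were within counting error.

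The remaining members lie at the edge of the pathway. Oxct1, which activates ketone bodies by moving CoA from succinyl-CoA to acetoacetate, had 5930 entacapone and 5992 vehicle reads. Its ratio after scaling was 1.07-fold (log2 0.10, 0.04 to 0.15), the smallest of the 25 beyond counting error. Abat, the transaminase of GABA and beta-alanine (chromosome 16, 8513429 to 8621568), had 517 entacapone and 342 vehicle reads and was 1.63-fold higher (0.71, 0.51 to 0.91).

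Per kb of annotated exon, the 32 genes spanned a wide range of levels. Bckdha was highest at 177 CPM per kb in the entacapone and 121 CPM per kb in the vehicle library. Oxct1 followed at 125 and 117 CPM per kb, and Pccb at 119 and 93.6 CPM per kb. Lowest were Slc7a5 at 1.75 and 2.01, Slc43a2 at 2.15 and 3.06 and Ppm1k at 1.998 and 1.298 CPM per kb in the entacapone and the vehicle library. In the BCKDH group the kinase Bckdk was about as abundant per kb as the E2 gene Dbt (21.7 and 22.1 CPM per kb in the entacapone library, 17.6 and 18.3 in the vehicle library). The phosphatase stood far below both. Slc43a1 was above Slc43a2 per kb in the entacapone library and below it in the vehicle library, at 8.46 and 2.15 CPM per kb in the entacapone library and 2.46 and 3.06 CPM per kb in the vehicle library. These levels rest on all annotated exons of a gene, so genes with long or rarely used exons read low.

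**Figure D4:**
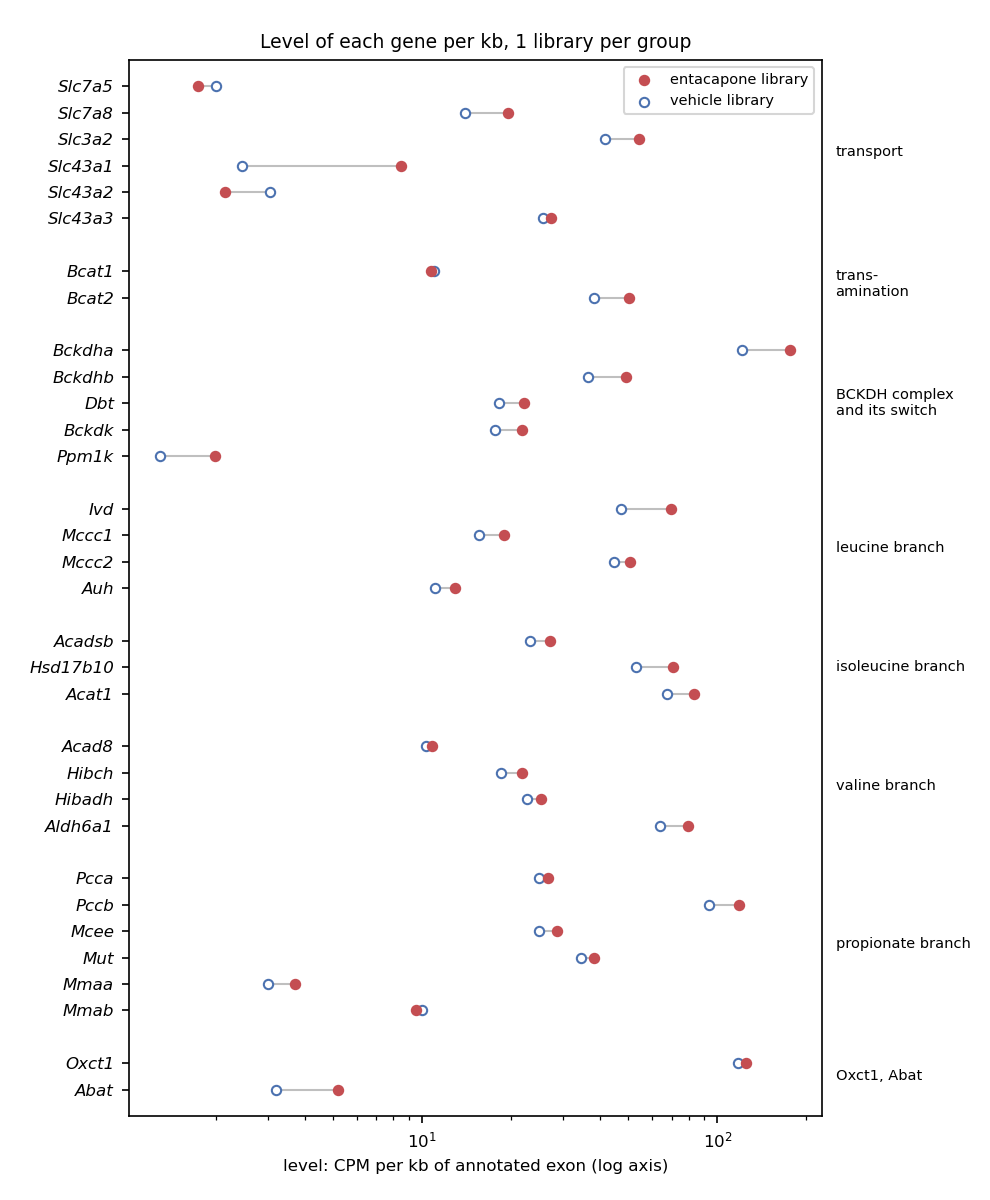
Level of each of the 32 genes in CPM per kb of annotated exon (log axis) in the entacapone library (filled) and the vehicle library (open), grouped by role, with a grey line joining the pair. Levels run from 1.298 CPM per kb (Ppm1k, vehicle) to 177 CPM per kb (Bckdha, entacapone), and the widest gap is that of Slc43a1.

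Some of these counts share sequence or position with other genes. The libraries do not mark strand, and 61.7% of the annotated exon bases of Bckdha overlap exons of B3gnt8 on the opposite strand. B3gnt8 itself was scarce, at 2.11 CPM with entacapone and 3.55 CPM with vehicle, and was not higher. Because the counting mode is not stated, these values do not show how reads over the shared bases were assigned. Over 5% of exon bases, or of 101-base stretches of transcript, were shared with another gene for Bckdha, Aldh6a1, Oxct1, Bcat2 and Slc43a2, and values of these 5 are uncertain to that extent. Of the other 27, 21 exceeded a ratio of 1 beyond counting error, 0 fell short of it, and the group had a median log2 ratio of 0.27.

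Enzymes and cofactor genes that the pathway shares with other routes went both ways. Of 33, 15 were higher and 5 lower beyond counting error, beside 20.2% higher and 21.1% lower of all measured genes. The list had a median log2 ratio of 0.06. Dld, the E3 subunit that BCKDH shares with pyruvate dehydrogenase, stood at 204 CPM with entacapone and 192 CPM with vehicle (log2 0.08, 0.00 to 0.16), with an interval below those of the E1 genes and overlapping that of Dbt. Slc25a44, the mitochondrial carrier of branched-chain amino acids, was within counting error (-0.03, -0.15 to 0.10). Highest in this list were Aldh2, the mitochondrial aldehyde dehydrogenase (0.55, 0.52 to 0.58), and Pdk4, the kinase that switches pyruvate dehydrogenase off (0.53, 0.48 to 0.58). Lowest were Hmgcs1, the cytosolic HMG-CoA synthase of sterol synthesis (-1.33, -1.41 to -1.25), and Bdh1, a ketone body dehydrogenase with 12 entacapone and 26 vehicle reads (-1.01, -2.13 to 0.03).

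Transcription factors and coactivators that are known to act on this pathway or on fat metabolism also differed in direction. Of 12, 5 were higher and 7 lower beyond counting error, beside 20.2% higher and 21.1% lower of all measured genes. The list had a median log2 ratio of -0.17. Klf15, a Kruppel-like factor known to activate branched-chain amino acid breakdown in mouse heart and muscle, stood at 96.0 CPM with entacapone and 50.2 CPM with vehicle (log2 0.93, 0.80 to 1.07). Pparg, the adipocyte nuclear receptor, stood at 130 against 162 CPM (-0.32, -0.41 to -0.23). The coactivator Ppargc1a was higher on few reads (48 entacapone, 29 vehicle; 0.84, 0.14 to 1.55), and its relative Ppargc1b was lower (36 entacapone, 60 vehicle; -0.63, -1.27 to -0.01). Srebf1, a factor of lipid synthesis, was lowest (-0.72, -0.78 to -0.66).

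Markers of other cell types differed between the same 2 libraries. Skeletal muscle, a tissue that also expresses these enzymes, was represented by 12 markers that summed to 2125 CPM with entacapone and 1380 CPM with vehicle. Of these, 11 exceeded a ratio of 1 beyond counting error and 0 fell short of it, with log2 ratios between 0.09 and 3.35 and none at 0 reads. The 10 adipocyte markers summed to 41754 CPM with entacapone and 39245 CPM with vehicle, with 6 higher and 4 lower and a median log2 ratio of 0.07. Their ratios ran from -0.42 (Lep) to 0.96 (Adrb3).

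Hepatocyte markers, from an organ that expresses most of these enzymes, were lower in all 12 cases and summed to 85.01 CPM with entacapone and 403 CPM with vehicle. Macrophage markers summed to 565 CPM with entacapone and 1187 CPM with vehicle, with 9 of 10 lower and 0 higher. Fibroblast and progenitor markers summed to 4137 against 6301 CPM, with 8 of 9 lower and 0 higher. Endothelial markers summed to 794 CPM with entacapone and 790 CPM with vehicle, with 3 of 7 higher and 2 lower. Epithelium markers summed to 55.1 against 18.6 CPM, with 5 of 8 higher and 0 lower. Red cell markers summed to 467 CPM with entacapone and 283 CPM with vehicle, with 5 of 5 higher. Brown fat markers summed to 89.5 against 65.6 CPM, with 2 higher and 3 lower of 5 measured; Ucp1, the uncoupling protein that defines brown fat, had 8 entacapone and 45 vehicle reads. The part of these differences in the ratios of the pathway genes was not tested.

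**Figure D5:**
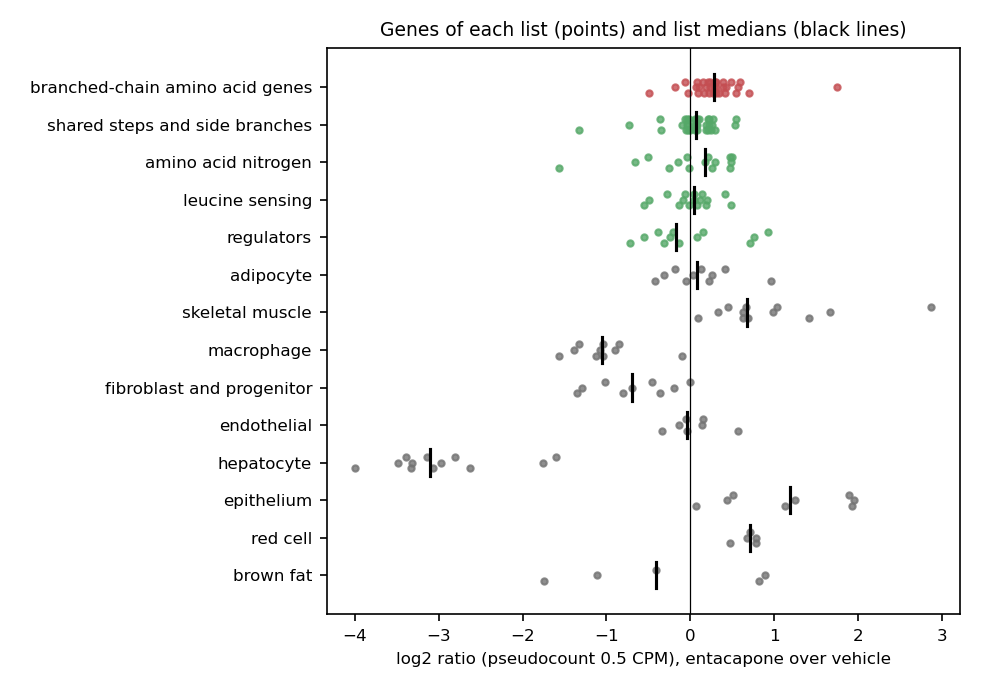
Log2 ratio of entacapone over vehicle (0.5 CPM added to both) for each measured gene of the pathway (red), of related lists (green) and of cell type marker lists (grey), with list medians as black lines. The pathway median is 0.27. Medians of the marker lists run from -3.10 (hepatocyte) to 1.19 (epithelium), with 0.07 for adipocyte and 0.67 for skeletal muscle markers.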

How the data were processed

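Poly(A)-selected RNA was made into libraries with the TruSeq RNA v2 kit and read at 101 bases, per the labels' protocols. The authors deposited 1 file per library with unnormalized counts of reads, 1 row for each Ensembl identifier. The submitters' processing notes name TopHat2 2.1.1, HTSeq 0.6.0 and mm10. The sources used here do not state the annotation release, the counting mode or how multiply mapped reads were treated.

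From these counts, CPM was computed with effective library sizes from TMM (edgeR 4.0.16; factors 0.986 for entacapone and 1.01 for vehicle). GENCODE M21 (GRCm38, the assembly of mm10) gave symbols for 35449 of 37315 genes, positions and union exon lengths. The comparison covered genes whose mean over both libraries reached 1 CPM. Ratios carry exact 95% Clopper-Pearson intervals, and medians use a pseudocount of 0.5 CPM. At 154 and 108 reads (Ppm1k) the interval reached a factor of 1.29 above the ratio, and for Oxct1 a factor of 1.04. Reads carry no molecular identifiers. The interval code was tested on simulated data.

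The members, the gene lists and the tests were chosen with earlier results of these data known. Genes named are all members, Dld, Slc25a44, Klf15, Pparg and the highest and lowest 2 measured genes of each related list. Adipoq, B3gnt8, Ucp1, Lep, Adrb3, Sesn2 and the neighbours of Slc43a1 were named after values were seen. Alternatives were other scalings (DESeq2 1.42.0 size factors, total counts, upper quartile, TMM without 37 marker genes of other tissues), other limits, another pseudocount, the mean, and, added after the data were seen, removal of trends in transcript length and GC content.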

Additional observations from a re-analysis of the deposited data

How the results depend on the processing

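The counts of members past a limit and the median kept their direction under all alternatives run. Of these values, 38 of 39 stayed close to those reported, but part of them could not have changed. The exception is the limit itself: at 2-fold, 1 gene (Slc43a1) in place of 3 was higher. With total counts the log2 ratio of Ppm1k was 0.58, just under 1.5-fold, which left 2 genes. This still counted as close, because counts within a factor of 1.5 of those reported did. Every member had a mean above 5 CPM (the lowest was Slc7a5, 6.97 CPM). Other limits on low values therefore could not change a member value. With 0 members lower by 1.5-fold, the lower count at 2-fold was fixed as well. Genes higher beyond counting error numbered between 24 and 26 over the scalings, and 1 was lower under each. Of all measured genes, 16.4% were higher and 24.5% lower with total counts, and 21.6% and 19.9% with upper quartile. The median log2 ratio ran from 0.23 (total counts) to 0.30 (length and GC trends removed, an alternative chosen after seeing the data). Over all measured genes the median was -0.03 with total counts and 0.005 with the trends removed. Another scaling shifts the log2 ratios of all genes by the same amount, from -0.041 (total counts) to 0.014 (upper quartile). All 128 single-gene values therefore stayed within the reported intervals, which is not a separate check of each gene. No paired analysis was possible because each group holds 1 library. The main limit is that no spread between animals can be estimated, and genes with few reads, such as Slc7a5 and Ppm1k, have wide intervals.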

Other observations

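Genes that handle the nitrogen of amino acids went both ways, among enzymes and among carriers. Of 15 measured, 7 were higher and 6 lower beyond counting error, beside 20.2% higher and 21.1% lower of all measured genes. The list had a median log2 ratio of 0.17. Asns, asparagine synthetase, stood at 69.4 CPM with entacapone and 49.3 CPM with vehicle (log2 0.49, 0.35 to 0.64). Gpt2, the mitochondrial alanine transaminase, stood at 248 against 177 CPM (0.49, 0.41 to 0.56). Lowest were Slc25a13, a mitochondrial aspartate-glutamate carrier that liver also expresses, with 8 entacapone and 39 vehicle reads (-2.18, -3.48 to -1.06), and Slc7a7, a light chain of cationic amino acid exchange (-0.71, -1.16 to -0.27). Slc7a11 was under the limit of 1 CPM.

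Genes of leucine sensing and of mTORC1 itself, taken as a single list, were mostly within counting error, as were 7839 of all 13361 measured genes. Of 16 measured, 2 were higher and 3 lower, beside 20.2% higher and 21.1% lower of all measured genes. The list had a median log2 ratio of 0.04. The sestrin genes went both ways. Of the leucine-binding sestrins, Sesn1 lay at 0.41 (0.28 to 0.55) and Sesn2 at -0.28 (-0.43 to -0.13). Their relative Sesn3 lay at -0.58 (-0.92 to -0.23). Castor1, an arginine sensor, lay at -0.51 (-0.76 to -0.26), and the GTPase gene Rragd at 0.60 (-0.23 to 1.46) on few reads.

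The 4 nearest coding genes on each side of Slc43a1 on chromosome 2 were compared with it. Those that passed the limit on low values did not share its ratio, with intervals below that of Slc43a1. The nearest coding gene upstream is Timm10, 8636 bases away, at a log2 ratio of -0.36 (-0.66 to -0.05). The nearest downstream is Rtn4rl2, 8329 bases away, with 106 entacapone and 86 vehicle reads (0.41, -0.01 to 0.84). Smtnl1 had 17 entacapone and 7 vehicle reads (1.39, 0.05 to 2.90), and its mean was under 1 CPM. Prg2, with 4 entacapone and 6 vehicle reads, and Prg3, with 1 read in each library, were also under this limit. These low counts cannot show whether Smtnl1, Prg2 and Prg3 share the ratio. Serping1 lay at -0.29 (-0.35 to -0.23). Ube2l6 lay at -0.17 (-0.43 to 0.09), and Slc43a3, 72984 bases downstream, is given above with the carriers.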
